A study of Rattus norvegicus with 2 samples.

Results

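Retinoic acid is the active form of vitamin A, and 9 genes of its synthesis, carriage and receptors were compared between a female and a male pool of rat hypothalamus. The genes were Aldh1a1, Aldh1a2, Aldh1a3, Rbp4, Crabp1, Crabp2, Stra6, Rara and Rarb, taken as every non-control spot that the deposited files name as one of them. They held 18 of 42877 non-control spots, and stood for 9 of 26353 genes or other targets. They were chosen by function with their measured female minus male differences already known, so their values are given as a description, with no test.

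The female pool held RNA of 5 female Wistar Kyoto (WKY) rats and the male pool RNA of 5 male WKY rats, all 9 weeks old, fed freely, and killed under ether by decapitation. WKY is an inbred strain with normal blood pressure. Each rat gave 100 ng of total RNA of the dissected hypothalamus to its pool, and 150 ng of each pool was labelled with the dye Cy3 and hybridised to 1 Agilent 1-colour array. The series concerns sex differences in brain centres that govern the circulation. With 1 array in each pool there is no replicate, no SD over rats and no p-value, and a difference between these pools cannot be told apart from a difference between the rats, the dissections or the hybridisations. In such bulk tissue, fewer cells of a type and less RNA per cell cannot be told apart either.

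Cells make retinoic acid from retinol by way of retinal, and the ALDH1A enzymes carry out the last, irreversible step. Retinol travels in blood on retinol-binding protein, and inside cells the CRABP proteins carry retinoic acid to its nuclear receptors or to the CYP26 enzymes that break it down. In the brain, the meninges and the cells lining the ventricles are known sources of the synthesis enzymes.

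Each member was read by 1 probe of 60 bases, placed on rat genome build rn4. Probes that lie in coding sequence are printed here to show what the values of Crabp1, Rarb and Aldh1a3 were read from, with no capitals since no part of them is set apart. The Crabp1 probe spans an intron within chr8:58320823-58325131, the Rarb probe lies at chr15_random:240462-240521, and the Aldh1a3 probe spans an intron within chr1:120847772-120853625.
Crabp1: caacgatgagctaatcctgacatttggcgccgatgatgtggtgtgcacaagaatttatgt
Rarb: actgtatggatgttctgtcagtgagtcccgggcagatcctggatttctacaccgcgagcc
Aldh1a3: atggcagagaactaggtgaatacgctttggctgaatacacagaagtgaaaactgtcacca

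Levels are log2 of the processed signal minus log2 of the 75th percentile of that array, so a level of 0 is the 75th percentile, and differences are female minus male on that log2 scale. Slide and scan were shared by both arrays. The 75th percentile was 2943 in the female pool, against 3769 in the male pool, 84.2% and 84.9% of non-control spots were well above background in the female and the male pool, and 0 were saturated. Known hypothalamic peptide genes were bright in both pools, with levels of 5.27 in the female and 5.54 in the male pool for Avp, and of 6.42 in the female and 6.32 in the male pool for Pmch.

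Of the 9 genes, 8 had a signal well above background on both arrays. Higher in the female pool by 1.5-fold or more were 3, namely Aldh1a2, Crabp2 and Rbp4, and 0 were at least 1.5-fold lower. Over all 20677 genes measured in both pools, 2.4% were at least 1.5-fold apart, 1.56% higher and 0.842% lower in the female pool, and 0.846% were at least 2-fold apart, as was 1 of the 8. The median difference was 0.10 over the 8 genes, against 0.00017 over all genes, whose SD was 0.23. Because the genes were chosen with this contrast known, nothing is read from these shares.

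**Figure D1:**
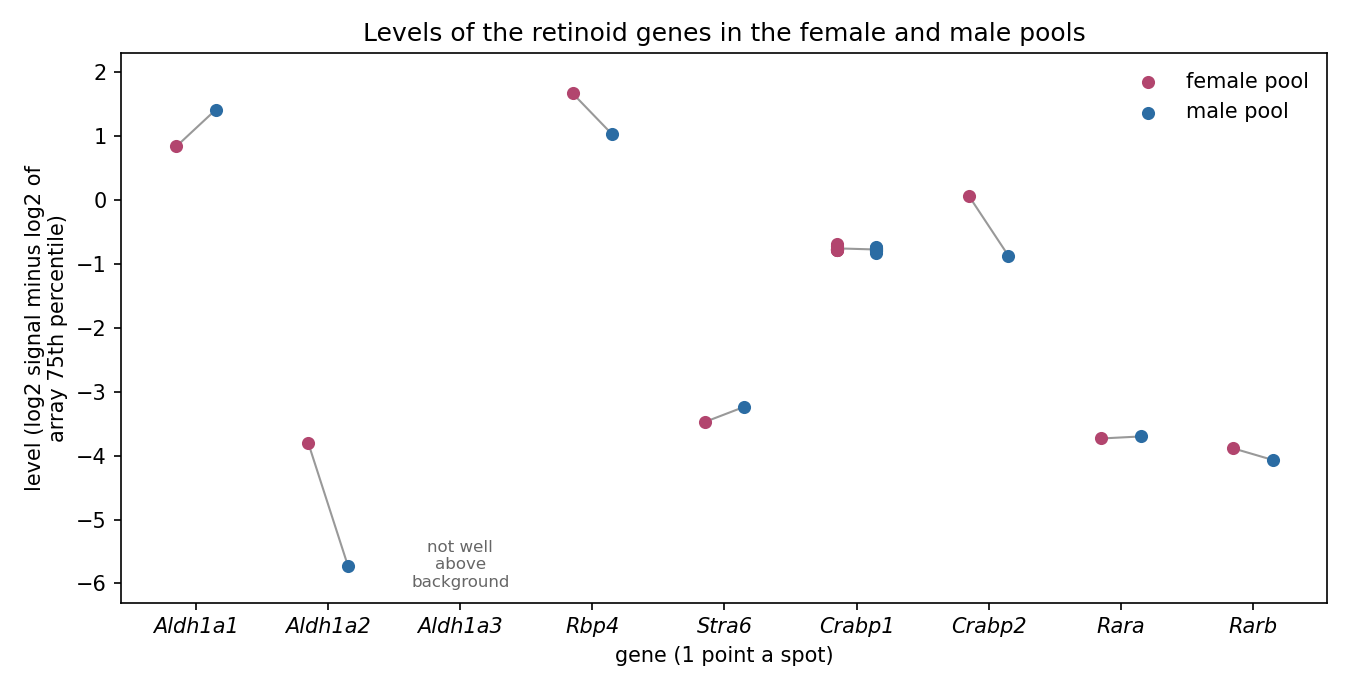
Level of each gene (vertical axis, log2 signal minus log2 of the array's 75th percentile) in the female pool (left, red) and the male pool (right, blue), 1 point for each spot and lines joining the pool means. Aldh1a2 lies 1.92 higher and Aldh1a1 0.58 lower in the female pool, the 10 spots of Crabp1 overlap, and Aldh1a3 has no value.

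The synthesis enzymes differed in opposite directions. Aldh1a2, which makes retinoic acid in the meninges and in many embryonic tissues, had a signal of 210 in the female pool, against 71.1 in the male pool. Its level was -3.81 in the female pool, against -5.73 in the male pool, a difference of 1.92 or 3.78-fold. It was the largest difference among the 8 genes, and 26 of all 20677 genes differed by as much. Repeated spots of other probes at a like level scattered by an SD of 0.12 over 820 spots, and 0 of them departed from their probe's median by 1.92 or more. That scatter covers the spots of 1 slide only.

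The settings that kept the Aldh1a2 spot numbered 11, the main one included, and several could not change its value. Keeping outlier spots, dropping the dim filter and taking the brightest probe left its 1 unflagged spot as it was. The deposited table had the same scaling as the main setting. Other scalings gave 1.88 by the median, 1.84 by the spike-in controls and 1.89 by quantile normalization. Aldh1a2 was lower in the female pool in 1 setting, the planned background correction by normexp. With normexp, which fits a model to the mean signal less the local background, the difference was -0.95, so the sign turned, and the median of all genes moved to -0.55. A single male spot had a local background of 22727, against a median of 39, and 3 male spots were over 10 times that median. In a repeat chosen after this value was seen, with those 3 given the median, the difference was 1.37 and the median of all genes 0.05. Leaving out bands of slide rows where repeated spots disagree removed the only Aldh1a2 spot under the first definition of the bands, and kept it at 1.92 under a second one, also chosen after the first was seen.

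Aldh1a1, a retinal dehydrogenase of adult brain, had a signal of 5260 in the female pool, against 10048 in the male pool. Its level was 0.84 in the female pool, against 1.41 in the male pool, a difference of -0.58, or 1.49-fold higher in the male pool. This lies just under the 1.5-fold line, as Rbp4 lies just over it, and Aldh1a1 passed the line with the arrays scaled by the median (-0.62) or by the spike-in controls (-0.65). Like repeated spots scattered by an SD of 0.04, though 1 nearby repeated spot departed by -0.93. Aldh1a3, the third enzyme of the family, did not reach a signal well above background in the female or the male pool, at 3.27 in the female and 3.74 in the male pool, and is given no fold.

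The carriers were mixed. Crabp2, which delivers retinoic acid to its nuclear receptors, had a signal of 3076 in the female pool, against 2056 in the male pool. Its level was 0.06 in the female pool, against -0.87 in the male pool. The difference was 0.94, or 1.92-fold, and 201 genes differed by as much. Rbp4, the retinol carrier of blood, had a signal of 9361 in the female pool, against 7678 in the male pool. Its level was 1.67 in the female pool, against 1.03 in the male pool. The difference was 0.64, or 1.56-fold, and fell under the line at 0.57 when scaled by the spike-in controls. Both differences exceeded the scatter of like repeated spots, an SD of 0.05 in each case. The bands of the first definition covered the only Crabp2 spot, so Crabp2 had no value without them.

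Crabp1, which binds retinoic acid in the cytoplasm, was the best measured gene, with 10 spots spread over the slide. Its signal ran from 1702 over a median of 1728 to 1829 in the female pool, and from 2130 over 2199 to 2270 in the male pool. After scaling, the levels of the pools overlapped, and the difference was 0.018 ± 0.028 (SD of 10 spots of 1 probe, not of rats), with single spots from -0.033 to 0.056. Its sign turned with the scaling, to -0.02 by the median and -0.06 by the spike-in controls. Stra6, the membrane receptor for retinol-binding protein, had a signal of 265 in the female pool, against 400 in the male pool. Its levels were -3.47 in the female and -3.24 in the male pool, a difference of -0.24, and 14 of 1517 like repeated spots departed as far.

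The receptors differed little. Rara, the broadly expressed retinoic acid receptor alpha, had a signal of 221 in the female pool, against 290 in the male pool, and levels of -3.73 in the female and -3.70 in the male pool, a difference of -0.03. Rarb, the receptor beta, had a signal of 199 in the female pool, against 225 in the male pool. Its levels were -3.89 in the female and -4.07 in the male pool. Its difference of 0.18 was near the SD of 0.15 of like spots, and its spot was the only single one of the 9 genes inside the bands of the second definition. Both genes, and Stra6, were far lower in the female pool under the planned normexp, at -1.28 for Rara, -1.15 for Rarb and -1.27 for Stra6. With the extreme local backgrounds replaced the differences were 0.07 for Rara, whose sign turned against the reported one, 0.25 for Rarb and -0.14 for Stra6.

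Rarb is known for a retinoic acid response element in its own promoter, so that promoter is shown beside its value. The sequence is 250 bases before to 50 bases after the start in RefSeq, build GRCr8, chr15:11336142-11336441 on the plus strand. Capitals mark a direct repeat of the receptor half-site with a spacer of 5 bases (DR5), found at bases 25 to 41 after the start.
Rarb: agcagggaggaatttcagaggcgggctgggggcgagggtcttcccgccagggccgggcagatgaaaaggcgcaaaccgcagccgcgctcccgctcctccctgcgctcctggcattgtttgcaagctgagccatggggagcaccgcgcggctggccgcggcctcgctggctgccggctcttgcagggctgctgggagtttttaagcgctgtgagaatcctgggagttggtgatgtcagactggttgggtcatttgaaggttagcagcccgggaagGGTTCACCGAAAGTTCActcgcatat
Both strands of 33469 promoters of the same length were searched, and 0.382% held a DR5, with Rarb the 1 of the 9 genes that did. The match is a description of letters and not a measured site.

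**Figure D2:**
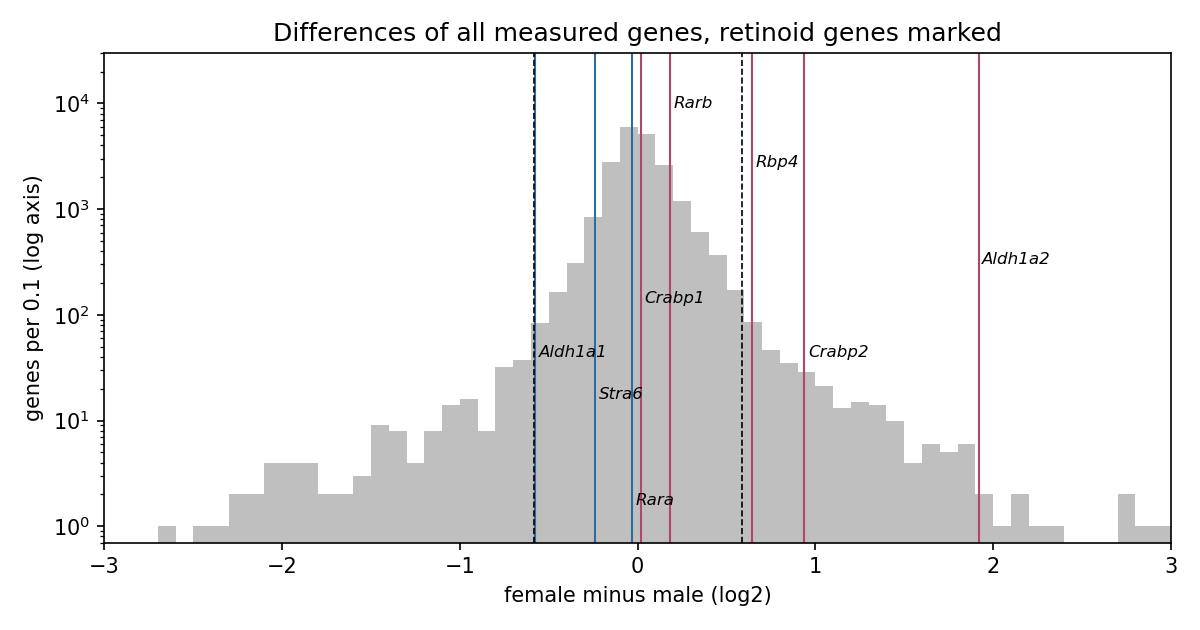
Number of genes (log axis) by female minus male difference in steps of 0.1, with the 8 measured genes as lines and the 1.5-fold lines dashed. Aldh1a2, Crabp2 and Rbp4 lie right of the upper dashed line and Aldh1a1 lies at the lower one, and 1 gene beyond 3 is not drawn.

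Other genes of the retinoid pathway mostly lay near 0. Of 35 listed, 28 were measured, with a median of 0.02. In the female pool 1 was at least 1.5-fold higher and 0 were as much lower. The 1 was Ttr, which carries retinol-binding protein and thyroid hormone, with levels of 1.09 in the female and 0.11 in the male pool and a difference of 0.98, on a spot inside the bands. Of the 3 listed enzymes that break down retinoic acid, Cyp26b1 differed by 0.48 ± 0.078 (SD of 10 spots) and Cyp26a1 by 0.30, neither reaching 1.5-fold. Cyp26a1 rested on 1 dim spot inside the bands, with a level of -6.95 in the female pool, against -7.25 in the male pool. Cyp26c1 had no value, since no spot was found under this name. Rdh10, which makes retinal, differed by -0.10. Among receptors, the probes of Rarg disagreed at -0.08 and 0.58, Rxra differed by 0.07, Rxrb by -0.04, Rxrg by 0.04 and Ppard by 0.02.

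Genes known to respond to retinoic acid in some vertebrate tissue did not share 1 direction. Of 22 listed, 19 were measured, with a median of 0.11, 14 above 0 and 5 below. The 1 gene past 1.5-fold was Hoxa2, a hindbrain patterning gene, at -7.27 in the female and -5.72 in the male pool, a difference of -1.55 on a dim spot inside the bands.

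**Figure D3:**
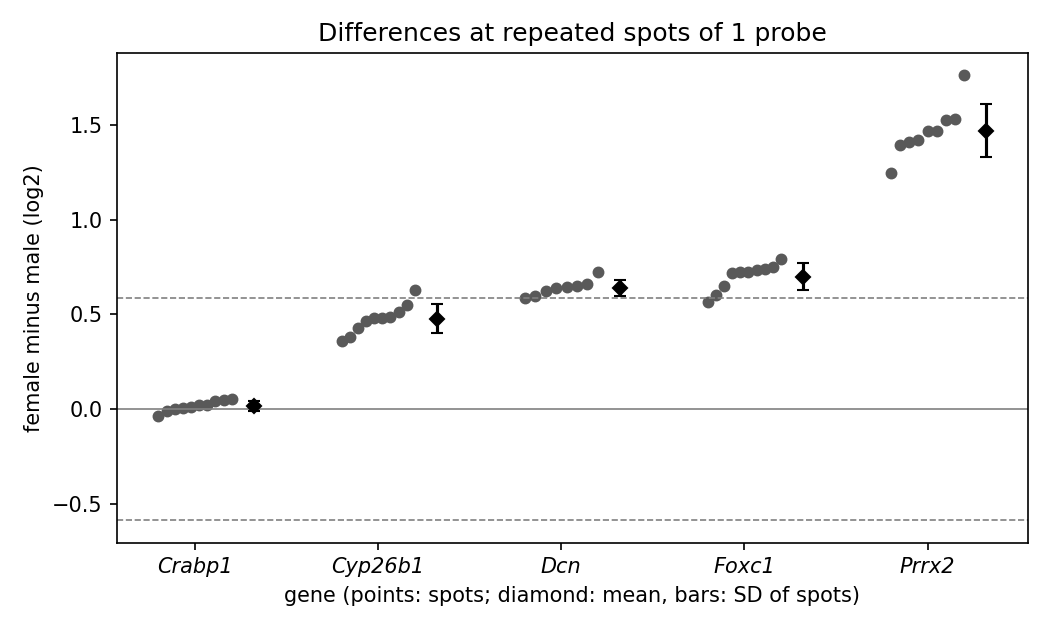
Female minus male difference (log2) at each repeated spot of 1 probe for Crabp1, Cyp26b1, Dcn, Foxc1 and Prrx2, with diamonds for means, bars for the SD of spots and dashed 1.5-fold lines. The spots of Crabp1 straddle 0, while those of the other 4 genes all lie above 0.

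The female pool had higher levels of the listed meningeal and fibroblast markers. This list was chosen with earlier results of these data known, so its counts are only a description. Among all genes 1.56% passed the 1.5-fold line upward, and the median was 0.00017. All 19 listed were measured and above 0, 13 of them at least 1.5-fold, with a median of 0.70, and their linear levels summed to 14.1 in the female pool, against 8.30 in the male pool. They were Dcn (0.64), Ogn (1.30), Col1a2 (1.04), Col3a1 (1.01), Foxc1 (0.70), Slc47a1 (1.39), Slc22a6 (1.34), Slc6a13 (1.17), Gjb2 (0.59), Igf2 (1.03), Bmp6 (0.60), Fmod (0.71) and Prrx2 (1.47). Foxc1, a transcription factor of the meninges, held 0.70 ± 0.071 and Prrx2 1.47 ± 0.139 over 10 and 9 spots. The spots of Slc47a1, Slc22a6 and Bmp6, 1 for each, lay inside the bands, and without the bands 10 of 15 markers were past the line. With normexp as planned the one-sided pattern was lost, with 4 markers at least 1.5-fold higher, 6 lower and a median of 0.011, while the median of all genes was -0.55. With the extreme local backgrounds replaced, 11 were higher and 0 lower, with a median of 0.65. None of these markers was at background. Their part in the values of Aldh1a2, Crabp2 and Rbp4 was not tested.

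Choroid plexus markers moved less, with 12 of 15 measured, a median of 0.12 and linear sums of 7.69 in the female and 6.73 in the male pool. At least 1.5-fold higher were Kcnj13 (2.22) and Ttr (0.98), both inside the bands, and Cldn2, Tmem72 and Car12 were not well above background in both pools. Tanycyte and ependymal markers, 13 in number, had a median of 0.02 and 0 past 1.5-fold, the largest being Col25a1 (0.54), Rax (-0.31) and Vim (0.24). All 8 blood cell markers were below 0, with a median of -0.43 and S100a8 at -1.27. Of 9 pituitary markers 7 were measured, 2 above and 5 below 0, with a median of -0.28. Past 1.5-fold were Tshb (-2.05) and Cga (-0.72), both lower in the female pool. Prl and Gh1 were not measured in both pools, Prl having a level of -5.72 in the female pool, against -9.79 in the male pool. The part of any of these in the retinoid values was not tested.

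Other cell types stayed closer to 0. Astrocyte, endothelial and oligodendrocyte markers had medians of -0.03, -0.03 and -0.06, with 0 past 1.5-fold. Among their largest differences were Sox9 (0.29), Gfap (-0.24) and Slc1a2 (0.18) in astrocytes, Slc2a1 (0.15), Slco1a4 (-0.14) and Pecam1 (-0.12) in vessels, and Cldn11 (-0.21) and Olig2 (-0.14) in oligodendrocytes. Of 9 microglial markers 8 were measured, with a median of 0.06, 6 above and 2 below 0, and Cd68 (0.59) was the 1 past 1.5-fold. All 18 hypothalamic neuron markers were measured, with a median of 0.09, 10 above and 8 below 0. Kiss1 (1.22) was the 1 past 1.5-fold. Gnrh1 lay just under that line at 0.58 ± 0.029 (SD of 9 spots), and the lowest was Ghrh (-0.36).

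**Figure D4:**
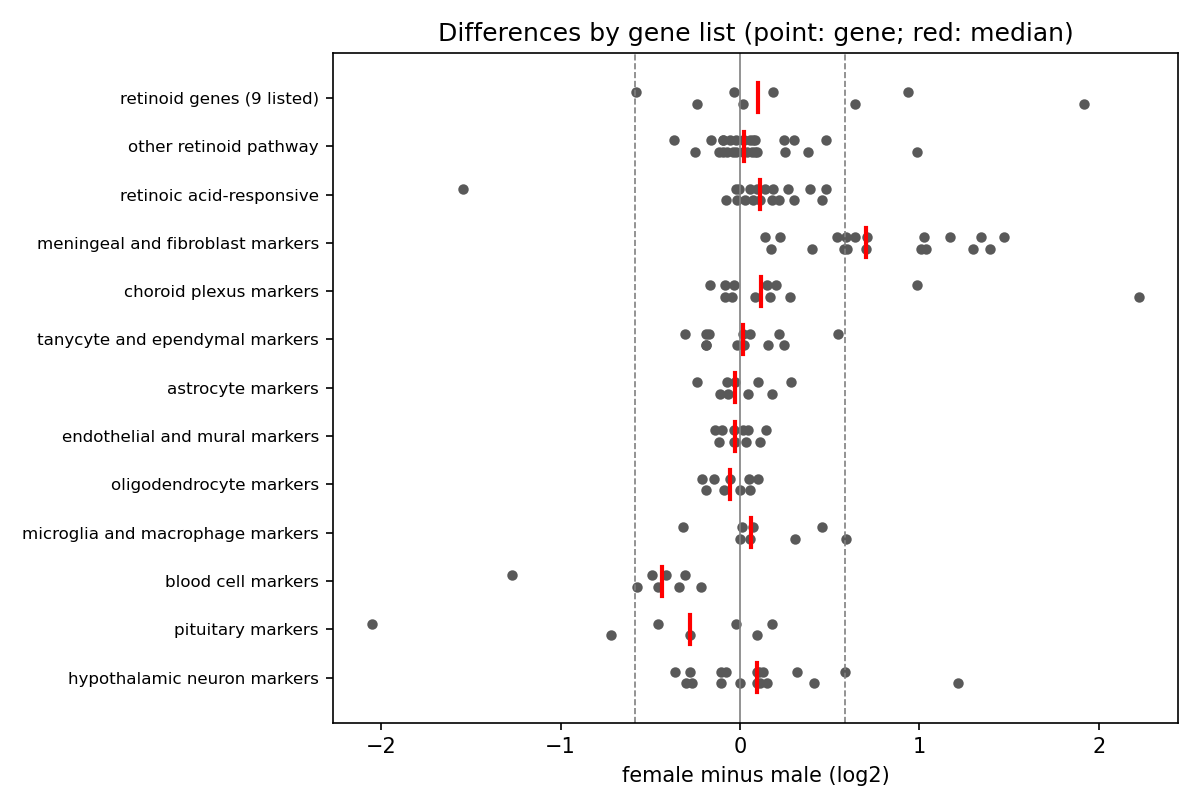
Female minus male difference (log2) of each measured gene by list, with medians in red and dashed 1.5-fold lines. The meningeal and fibroblast list has a median of 0.70 and lies wholly above 0, and the blood cell list lies wholly below 0.

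**Figure D5:**
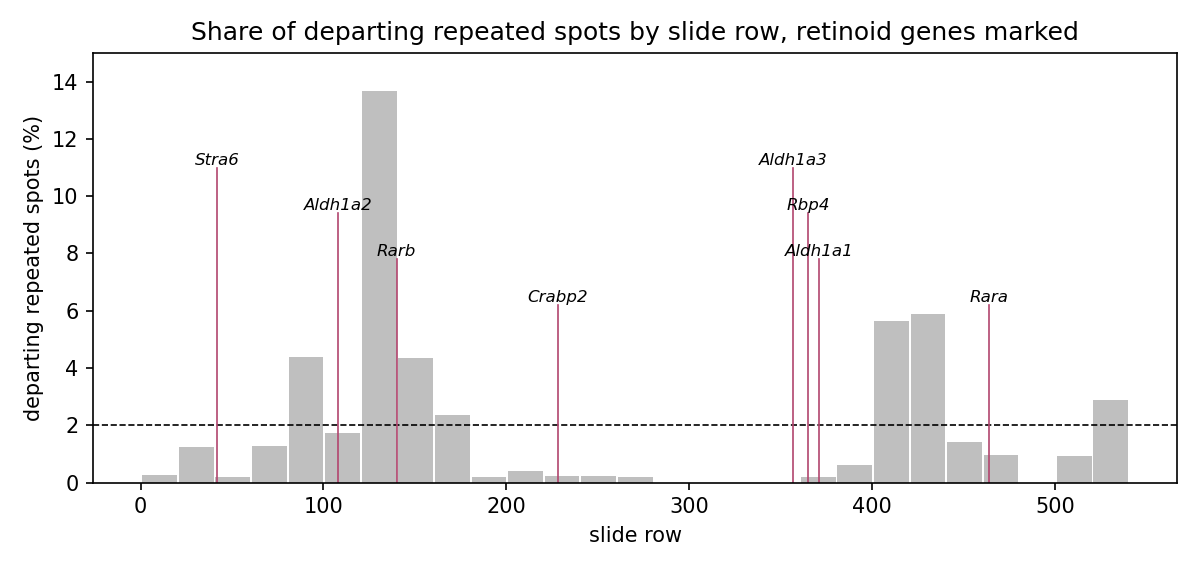
Share of repeated spots that departed from their probe's median by over 4 robust SDs (vertical axis, percent) in bins of 20 slide rows, with lines at the rows of the single-spot retinoid genes and the 2% line dashed. Rarb lies in a bin over 2%, and Aldh1a2 in a bin of 1.72% between such bins.

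Within 8 rows and columns of the Aldh1a2 spot lay 73 repeated spots of other probes, of which 3 departed, the farthest by 0.31. Near the Crabp2 and Rbp4 spots 0 of 75 and 0 of 77 departed. Near the Aldh1a1 spot 1 of 54 departed, by -0.93, which is the direction of the Aldh1a1 difference and larger than it. Of the others, 1 of 91 departed near Stra6, 4 of 90 near Rarb and 0 of 77 near Rara. A single spot carried each of these 7 genes.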

How the data were processed

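RNA of 1 female and 1 male pool was read on 1 array each. Per the file headers, the authors' processed intensity of a spot was background-subtracted and corrected for a spatial trend by Agilent Feature Extraction 10.7.3.1, with genome build rn4. The submitters' processing notes name version 9.1, and it is unknown which made the values. In the deposited value table the signal was equal to that intensity divided by its array's 75th percentile and multiplied by 100, on a linear scale.

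Levels were log2 of the deposited intensity minus log2 of the 75th percentile over non-control spots. Spots flagged as outliers were left out, spots of a probe and then probes of a gene were averaged, and a gene was measured where over 50% of a probe's spots were well above background in both pools. Of 30367 probes, 18758 were named by RefSeq accession and 2050 by symbol, both in GRCr8, and 9559 kept the file's name. No test was possible, and 1.5-fold and 2-fold were counted. The calculation was tested on simulated data with the same noise at every level, no bands and planted differences of 2-fold or more. That test does not bear on genes near the 1.5-fold line.

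Named were all 9 genes on every probe, of each other list every gene at least 1.5-fold apart, otherwise the 3 largest, and of the pathway list every nuclear receptor, Cyp26 enzyme and Rdh10. A gene that this rule names among the oligodendrocyte markers is not reported here. Members and lists were chosen with earlier results of these data known. Scaling, background correction, deposited table, outlier spots, dim probes, brightest probe, bands of rows and fold were varied. A band was a bin of 20 slide rows with over 2% of repeated spots more than 4 robust SDs from their probe's median. The first definition used 1 robust SD for all levels. It covered 412 of 532 rows, and was then replaced in the report by a robust SD within 20 groups of like level, which covered 132 rows. Normexp was likewise run as planned and then, after its values were seen, with extreme local backgrounds replaced. Values of the members are reported under both versions of normexp, and their counts under both versions of the bands. R 4.3.3 with limma 3.58.1, Python 3.11.15, numpy 2.4.6, pandas 2.3.3 and matplotlib 3.10.9 were used.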

Additional observations from a re-analysis of the deposited data

How the results depend on the processing

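No paired analysis was possible because each group held 1 array. Members apart were 3 at 1.5-fold, or 4 with median scaling, and 1 at 2-fold. Spike-in scaling (2 higher, 1 lower), quantile normalization and no dim filter gave 3. The deposited table, outlier spots and brightest probe could not alter the count. With normexp as planned, 6 members were apart, 2 higher and 4 lower, Aldh1a2 turned to -0.95, and counts were 10138 over all genes (48 higher, 10090 lower), 16 in the pathway list, 7 in the responsive list, 9 of choroid plexus markers and 10 of meningeal markers (4 higher, 6 lower, median 0.011). Aldh1a1 was then -0.45, Rbp4 0.72, Crabp2 0.77 and Crabp1 -0.13. The median of all genes then moved to -0.55, though single genes moved by unlike amounts and some rose. The male pool's median corrected signal was 1243 as planned and 667 after 3 extreme local backgrounds were replaced. That repeat, chosen after the reversal was seen, gave 3 members, 211 genes (174 higher, 37 lower) 0 responsive genes and 11 meningeal markers (all higher), with Aldh1a2 at 1.37, Aldh1a1 at -0.58, Rbp4 at 0.61, Crabp2 at 0.86 and Crabp1 at 0.014. Leaving out bands by the first definition, which covered most rows, left 3 of 8 members, of which 1 was apart (Rbp4). The only spots of Aldh1a2, Stra6, Crabp2, Rara and Rarb were removed. That setting gave 78 of 6117 genes, against 496 of 20677 in the main setting. It gave 3 meningeal markers of 4, and 0 in the pathway, responsive and choroid plexus lists. The second definition, made after this was seen, kept 3 members of 7 apart and gave 277 of 16362 genes. It gave 10 meningeal markers of 15 and 0 in those 3 lists. Without the dim filter 2079 of 26347 genes were apart. At 2-fold, 175 genes, 8 meningeal, 1 choroid plexus and 0 pathway genes were apart. The split of all genes was 245 higher and 239 lower under spike-in scaling, against 322 and 174.

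Precision is limited by 1 array for each pool and, for 7 of the 8 measured members, by 1 spot. Among the 8 measured members, the dim Aldh1a2, Stra6, Rara and Rarb moved most under the planned normexp. The bands and normexp were both changed after their first results were seen, and in both cases the change favoured the larger Aldh1a2 difference. Results under both versions are therefore given. Under the planned normexp the median of all genes was itself shifted, to -0.55.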
